A study of Caenorhabditis elegans with 6 samples.

Results

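Passenger arms of *Caenorhabditis elegans* microRNA (miRNA) hairpins were compared between cadmium-exposed and control worms. Within each hairpin that had a 5p and a 3p row, both with a mean count of 10 or more over the 6 libraries, the members were chosen by their counts: the arm with the lower summed count was taken as the passenger and the other as the guide. Hairpins numbered 1000 or above, and miR-1, miR-83, miR-243, miR-253 and miR-788, were set aside. This left 51 passenger arms among the 437 mature miRNA names listed, out of 190 hairpins with both arms listed and 63 with both arms above the count minimum. The names passenger and guide therefore describe counts in these libraries.

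All worms were of the wild type N2 strain, kept on standard growth plates and fed OP50 bacteria. The exposed group received cadmium chloride at 60 µmol/L from the L4 larval stage at 20 °C (3 libraries), and the control group is labelled untreated (3 libraries). The labels state neither the length of the exposure nor whether the replicates came from separate cultures, so p-values measure the spread between these samples, which may be technical. Small RNA of whole worms was sequenced, so fewer cells of a type and less RNA per cell cannot be told apart.

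A miRNA hairpin is cut by Drosha and then by Dicer into a short duplex, from which an Argonaute protein (mainly ALG-1 and ALG-2 in the worm) keeps the guide strand. The guide pairs with target messenger RNAs through its seed near the 5′ end. The passenger, or star, strand is usually discarded and degraded, so it is sequenced far less often. Some hairpins load both strands, and hairpins whose guides have the same sequence can still differ in their passenger strands.

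Library totals ran from 2580305 to 3781534 counts in cadmium libraries and from 1640693 to 3917414 in control libraries. The 51 passenger arms together took between 0.263% and 0.298% of the counts in cadmium libraries and between 0.271% and 0.321% in control libraries. Levels below are CPM (a count relative to the library total) scaled by the trimmed mean of M-values (TMM), and 3 counts, the floor used here, correspond to between 0.76 and 1.6 CPM depending on the library. The guides of the miR-35 family, a marker of embryos and the germline, made up 2.16 ± 0.43% of the counts in cadmium libraries and 9.34 ± 2.25% in control libraries (SD, n = 3 each). The muscle miRNA miR-1-3p had between 186144 and 242352 deposited CPM in cadmium libraries and between 177471 and 231014 in control libraries. The neuronal miR-124-3p lay between 19.0 and 39.5 deposited CPM in cadmium libraries and between 20.9 and 37.9 in control libraries, and the neuronal lsy-6-3p between 30.7 and 52.2 in cadmium libraries and between 48.8 and 61.8 in control libraries. The intestinal miR-60-3p lay between 1294 and 1699 deposited CPM in cadmium libraries and between 1733 and 2362 in control libraries. On the TMM scale its groups overlapped, and the log2 difference of −0.21 did not pass (edgeR adjusted p = 0.478).

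The summed counts that chose the members are given as a description. The passenger was the 5p arm in 28 hairpins and the 3p arm in 23. Its mean count ran from 10.5 (miR-789-3p) to 1209 (miR-63-5p), with a median of 65.5, and was under 20 for 10 members and 100 or more for 21. Just inside the minimum lay miR-789-3p (10.5 counts), miR-75-5p (11.8) and miR-66-3p (12.8), and just outside it miR-39-5p (9.83), miR-40-5p (9.67) and miR-233-5p (8.17). Of 105 hairpins numbered under 1000 with both arms listed, 45 had a higher arm above the minimum and a lower arm under it. The developmental timing miRNA lin-4 and the neuronal lsy-6 were among these, with means of 0.333 counts for lin-4-3p and 0.333 for lsy-6-5p. In 46 members the mean was 10 or more within each group. miR-232-5p and miR-238-5p reached it through cadmium libraries alone, and miR-41-3p, miR-75-5p and miR-789-3p through control libraries alone.

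The passenger share of a hairpin (passenger counts over the counts of both arms, summed over libraries) ranged from 0.0312% to 48.7%, with a median of 0.992%. It was under 1% in 26 hairpins and 10% or more in 9. The lowest shares belonged to miR-57-3p (0.0312%), miR-66-3p (0.0325%), miR-55-5p (0.0431%), miR-82-5p (0.0516%) and miR-238-5p (0.0541%), whose guides are abundant. The highest belonged to miR-358-3p (48.7%), miR-239a-3p (41.7%), miR-231-5p (28.7%), miR-63-5p (24.8%) and miR-789-3p (19.8%). The miR-789 share leaves out miR-789-2-5p, which is listed as a separate name and would lower that share. On the TMM scale miR-789-2-5p averaged 5.81 CPM in cadmium libraries and 16.0 CPM in control libraries. For miR-358 and miR-239a the lower arm was not lower in every library, so which arm counts as passenger depends on the library. The other 49 members were below their guide in all 6 libraries.

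**Figure D1:**
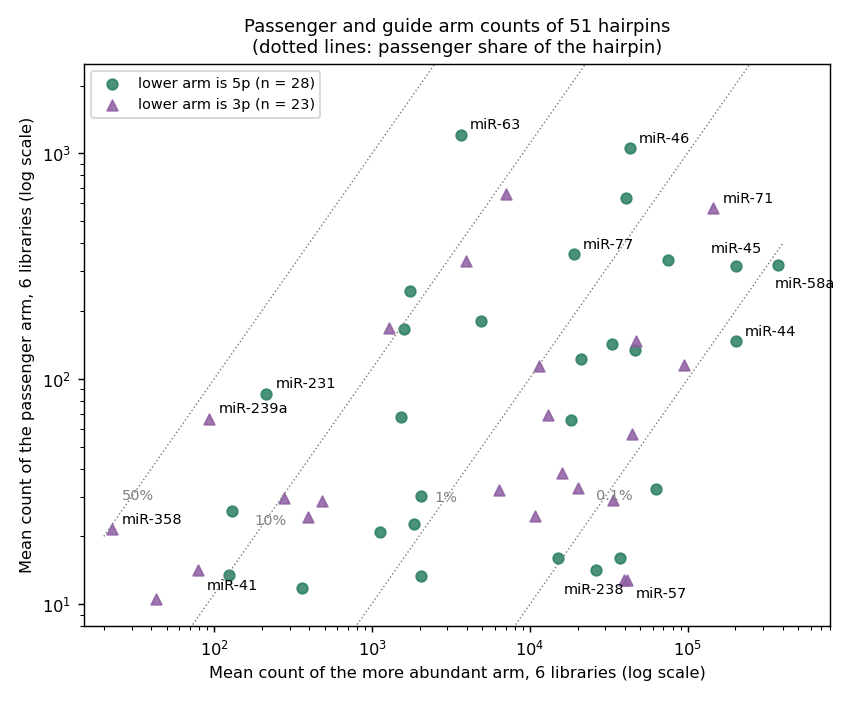
Mean count of the passenger arm (vertical axis, log scale) against that of the guide arm (horizontal axis, log scale) over 6 libraries, 1 point per hairpin, with dotted lines at equal passenger share. Shares run from 0.0312% for miR-57 to 48.7% for miR-358, and miR-44 and miR-45 share a guide count but differ in passenger count.

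miR-239a belongs to a family with reported roles in stress and lifespan. miR-239a-3p had 73, 83 and 66 counts in cadmium libraries, against 39, 47 and 92 in control libraries, and miR-239a-5p had 152, 94 and 136 in cadmium libraries, against 27, 82 and 68 in control libraries. The 5p arm was thus the higher arm in all 3 cadmium libraries and in control replicate 2, and the 3p arm was higher in control replicates 1 and 3. The log2 ratio of 3p to 5p changed by −0.81 (95% interval −1.77 to 0.15, adjusted p = 0.476 in limma), which did not pass. miR-358-3p had 19, 28 and 27 counts in cadmium libraries, against 19, 18 and 18 in control libraries, and miR-358-5p had 17, 50 and 11 in cadmium libraries, against 14, 12 and 32 in control libraries. Which arm was higher changed from library to library within both groups.

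The label of passenger runs against the family name at miR-41. The 3p arms of the miR-35 family carry its shared seed and are the guides, and at the neighbouring miR-40 hairpin the 3p arm averaged 4355 counts and the 5p arm 9.67. At miR-41, by contrast, the 3p arm averaged 14.2 counts and the 5p arm 78.5, so here miR-41-3p enters as the lower arm although it is the family member. The family sequences are similar, and how reads that match several of them were counted is not given in the sources used here.

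Hairpin positions were taken from the Ensembl annotation of WBcel235, which placed 50 member names at a single hairpin, while miR-789 has 2. Of the 50 hairpins, 18 lie on chromosome X, 9 on III, 7 on II, 6 on V and 5 each on I and IV. An intron of a protein-coding gene holds 14, and 36 lie between protein-coding genes. The annotated passenger arm is 21 to 25 bases long (median 22) and the guide 20 to 26 (median 23). The passenger is the shorter arm in 23 hairpins, the longer in 15 and of equal length in 12.

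Hairpins that lie close together on a strand are often cut from the same primary transcript, and 25 members fell into 11 such groups, with gaps of at most 10000 bases. The highest and lowest passenger share within a group differed between 1.37-fold and 264-fold. In the intron of gcn-1 on chromosome III, miR-229-3p made up 8.59% of its hairpin, miR-65-3p 0.240% and miR-66-3p 0.0325%. On the minus strand of chromosome V, the let-7 family hairpins miR-241 (14366188 to 14366283) and miR-48 (14364412 to 14364509) had passenger shares of 11.7% and 0.313%. Their passengers were alike in mean count, at 168 for miR-241-3p and 148 for miR-48-3p, while their guides differed, at 1271 and 46964. On chromosome X the passengers miR-73-5p (65.5 counts) and miR-74-5p (67.5 counts) were also alike, beside guides at 18245 and 1531 counts. In 3 groups the shares were within a factor of 1.66 of each other: 12.3% for miR-230-5p and 16.8% for miR-791-5p, 0.647% for miR-2-5p and 0.392% for miR-71-3p, and 9.62% for miR-795-3p and 5.81% for miR-794-3p. Position was not used in choosing the members, and these values are a description without a test.

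Cadmium was compared with control in edgeR's quasi-likelihood test across all 208 miRNAs that passed the filter on low counts, with Benjamini-Hochberg adjustment over all of them, and adjusted p-values of levels below come from that fit. Of the 51 passenger arms 50 were tested, and 4 passed an adjusted p of 0.05 (8%), against 21.6% of all miRNAs tested. miR-45-5p and miR-46-5p rose, against 9.62% of all miRNAs tested called higher, and miR-77-5p and miR-41-3p fell, against 12% called lower. miR-41-3p reached the count minimum through control libraries alone, which favoured its call as lower. With total-count scaling, which lowers the median log2 fold change of all miRNAs from 0.0039 to −0.16, the split was 0 higher and 2 lower. An unadjusted p under 0.05 was seen for 8 members, against 35.1% of all miRNAs tested. Cadmium libraries all lay above control libraries for 7 of the 50 members (17.8% of all miRNAs tested) and all below for 5 (20.7%), so that 12 did not overlap, against 38.5% of all miRNAs tested. The shares called and not overlapping among passengers were thus below those of all miRNAs tested, at mean counts that were low for many members. That background holds miR-83-5p (adjusted p = 0.00334, lower) and miR-243-5p (0.00381, higher), the lower arms of hairpins set aside. Both passed without overlap, so the lower shares are in part fixed by the choice of members. That part is small, since the background holds 45 miRNAs called and 80 that did not overlap. The part that low counts may have was not tested. Fitted log2 fold changes of the 50 ran from −1.72 to 1.02 with a median of 0.025, 34 were smaller than 0.5 in size, and the median standard error was 0.31. The log2 fold change was above 0 in 27 and below 0 in 23, against 50.5% of all miRNAs tested above 0, and total-count scaling turned this to 19 above and 31 below with a median of −0.16.

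Of the 51 guide arms of the same hairpins, 11 passed (21.6%), the same share as the 21.6% of all miRNAs tested. Of these guides 6 were higher and 5 lower, against 9.62% called higher and 12% called lower among all miRNAs tested. The median log2 fold change of the 51 guides was 0.18, and the median standard error was 0.21. When each of the 6 libraries was left out in turn, miR-77-3p was the only guide of these 11 that always passed. The guides that rose were those of miR-58a, miR-63, miR-79, miR-230, miR-237 and miR-794, and those that fell were of miR-41, miR-42, miR-49, miR-77 and miR-789. Only at miR-77 and miR-41 did both arms pass. A call for the guide and none for the passenger does not show that the arms differ, which is the question of the arm ratio below.

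**Figure D2:**
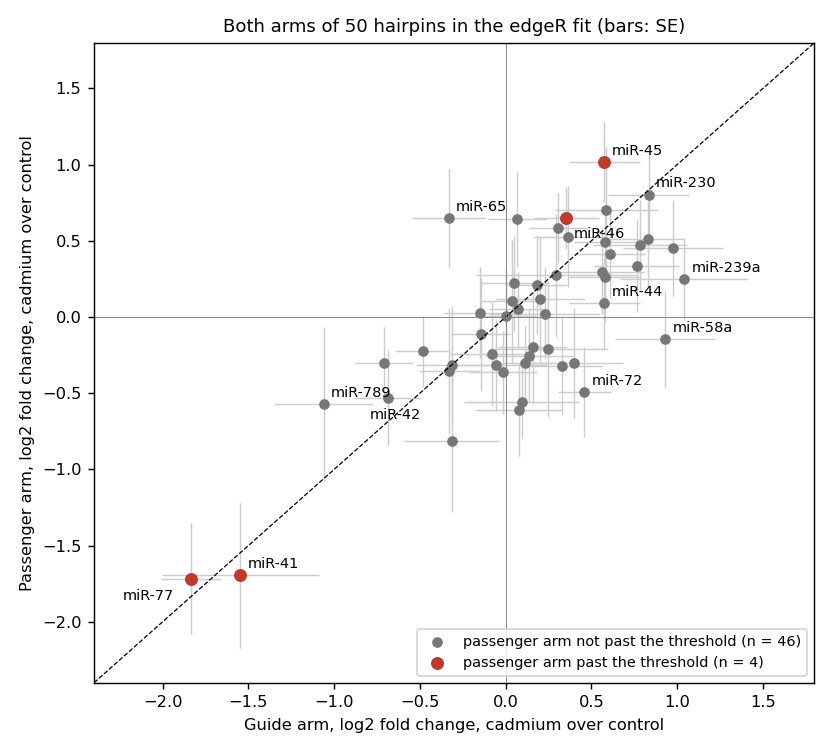
Log2 fold change (cadmium over control) of the passenger arm (vertical axis) against that of the guide arm (horizontal axis) for 50 hairpins, with standard errors as bars and equal change as a dashed line. The 4 passengers past the threshold are in red, and miR-77 and miR-41 stand apart at the lower left, with both arms lower under cadmium.

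The hairpin of miR-77 lies outside protein-coding genes on chromosome II, at 12519268 to 12519367 of the plus strand. miR-77-5p had 161, 314 and 73 counts in cadmium libraries, or 45.7, 92.8 and 32.6 CPM, against 396, 364 and 841 counts in control libraries, or 212, 141 and 213 CPM. Every cadmium library lay below every control library. The level averaged 57.0 ± 31.7 CPM in cadmium libraries and 189 ± 41.5 CPM in control libraries (SD, n = 3 each), which gives −1.72 as log2 fold change, with SE 0.37 and an edgeR adjusted p of 0.00704, and it passed with any single library left out. Its guide miR-77-3p had 2653, 3266 and 2745 CPM in cadmium libraries, against 9370, 10818 and 10721 CPM in control libraries, also without overlap. The guide's log2 fold change was −1.84 (SE 0.18). The arm ratio was close to level, with a change of 0.0014 on the log2 scale and a 95% interval from −0.88 to 0.89. The passenger held 1.88 ± 0.81% of the hairpin in cadmium libraries and 1.81 ± 0.48% in control libraries (SD, n = 3 each).

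miR-41 lies in the cluster of miR-35 family hairpins on chromosome II (11538308 to 11538404, plus strand), within an intron of Y62F5A.9, which runs the other way. miR-41-3p had 4, 8 and 8 counts in cadmium libraries, or 1.13, 2.36 and 3.57 CPM, against 7, 20 and 38 counts in control libraries, or 3.74, 7.73 and 9.64 CPM. The groups did not overlap, but cadmium replicate 3 and control replicate 1 were nearly level. On the log2 scale cadmium was −1.70 relative to control, with SE 0.47 and an adjusted p of 0.0297. The call was lost without cadmium replicate 1 (adjusted p = 0.0763), cadmium replicate 2 (0.0753), control replicate 2 (0.0697) or control replicate 3 (0.15). Because only the control mean reached 10 counts, the count minimum itself favoured a lower value under cadmium. The call of miR-41-3p therefore carries no support for a change. The other arm, miR-41-5p, had 6.81, 26.9 and 8.04 CPM in cadmium libraries, against 49.1, 37.5 and 37.8 CPM in control libraries, or −1.55 on the log2 scale with SE 0.46. The arm ratio changed by 0.28, with a 95% interval from −1.05 to 1.61. The related miR-42-5p, from another locus, had 7.09, 6.80 and 4.91 CPM in cadmium libraries, against 10.7, 7.34 and 9.64 CPM in control libraries. It was lower in every cadmium library, but its log2 fold change of −0.53 (SE 0.31) did not pass (adjusted p = 0.26). The summed guides of this family were also lower in cadmium libraries, as given above, and the part that fewer embryos may have in these values was not tested.

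**Figure D3:**
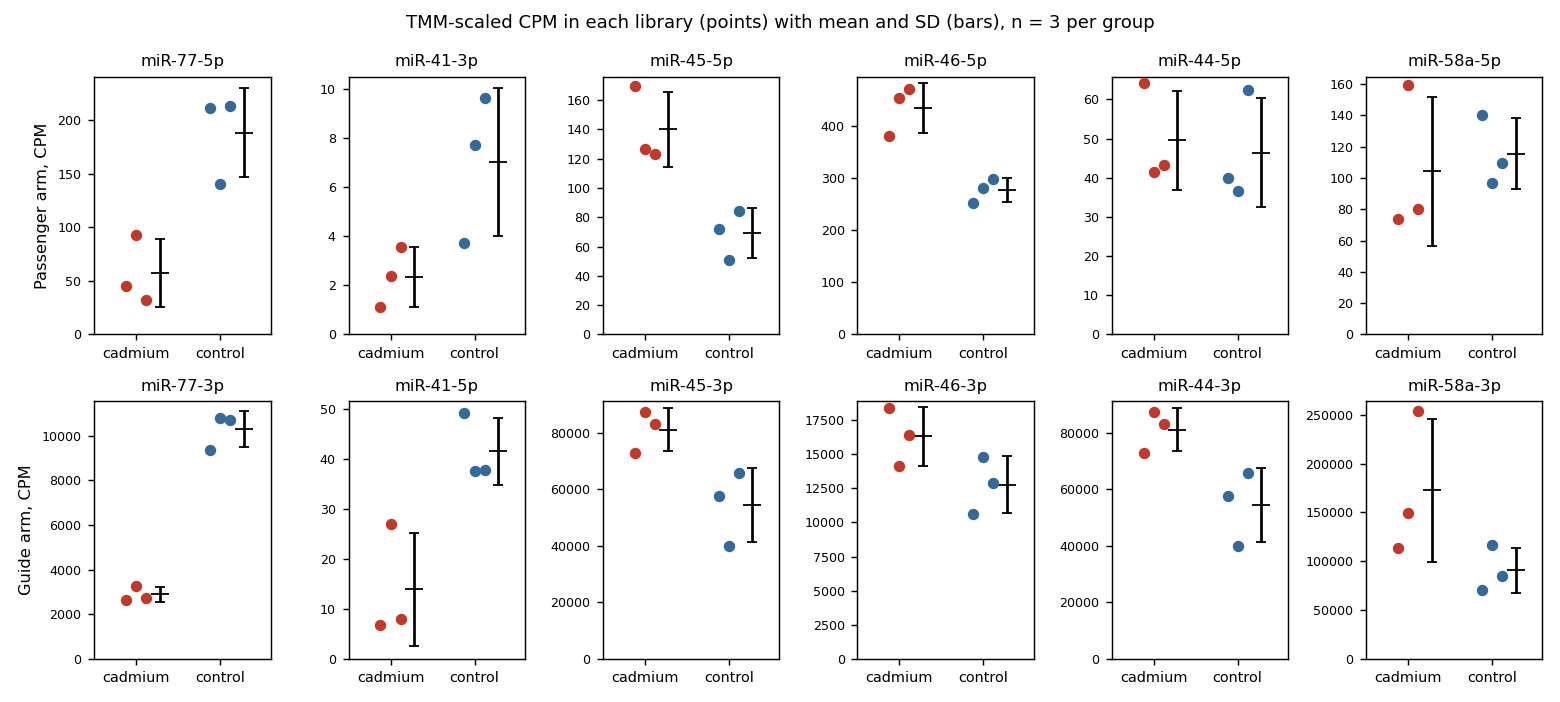
TMM-scaled CPM of the passenger arm (top) and guide arm (bottom) of 6 hairpins in each cadmium (left) and control (right) library, with mean and SD of 3 libraries. miR-77-5p and miR-41-3p were lower and miR-45-5p and miR-46-5p higher in all 3 cadmium libraries than in any control library, while miR-44-5p and miR-58a-5p overlapped.

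miR-44 and miR-45 had the same guide count in each library, so their guides cannot be told apart, and their passenger arms are the separate readings of these hairpins. Both lie on chromosome II between protein-coding genes, miR-44 at 11890023 to 11890118 on the plus strand, near miR-42, and miR-45 at 11880944 to 11881039 on the minus strand. miR-45-5p had 598, 429 and 276 counts in cadmium libraries, or 170, 127 and 123 CPM, against 135, 131 and 332 counts in control libraries, or 72.1, 50.6 and 84.2 CPM. All cadmium libraries were above all control libraries. On the log2 scale this was 1.02, with SE 0.26 and an adjusted p of 0.0206. The call was narrowly lost without control replicate 1 (adjusted p = 0.0524) or control replicate 2 (0.0548), and with total-count scaling (0.0586).

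miR-44-5p had 226, 140 and 97 counts in cadmium libraries, or 64.1, 41.4 and 43.3 CPM, against 75, 95 and 246 counts in control libraries, or 40.1, 36.7 and 62.4 CPM. The groups overlapped, and the fitted log2 difference was 0.090, with SE 0.30 and an adjusted p of 0.852. With total-count scaling it lay below 0. Within each library the ratio of miR-44-5p to miR-45-5p counts, which does not depend on scaling, was 0.378, 0.326 and 0.351 in cadmium libraries, against 0.556, 0.725 and 0.741 in control libraries. The groups did not overlap. On the log2 scale the ratio differed by −0.93 between the groups, with a two-sided exact permutation p of 0.1, the smallest that 3 libraries against 3 can give. This pair was chosen after the values were seen. The shared guide had 72647, 87335 and 83170 CPM in cadmium libraries, against 57489, 39990 and 65776 CPM in control libraries, 0.57 apart on the log2 scale, with SE 0.21 and an adjusted p of 0.0656. The third family member in the set, miR-61-5p, had 37.4, 56.7 and 82.6 CPM in cadmium libraries, against 29.9, 50.99 and 40.6 CPM in control libraries, with overlapping groups and a log2 fold change of 0.53 (adjusted p = 0.289).

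**Figure D4:**
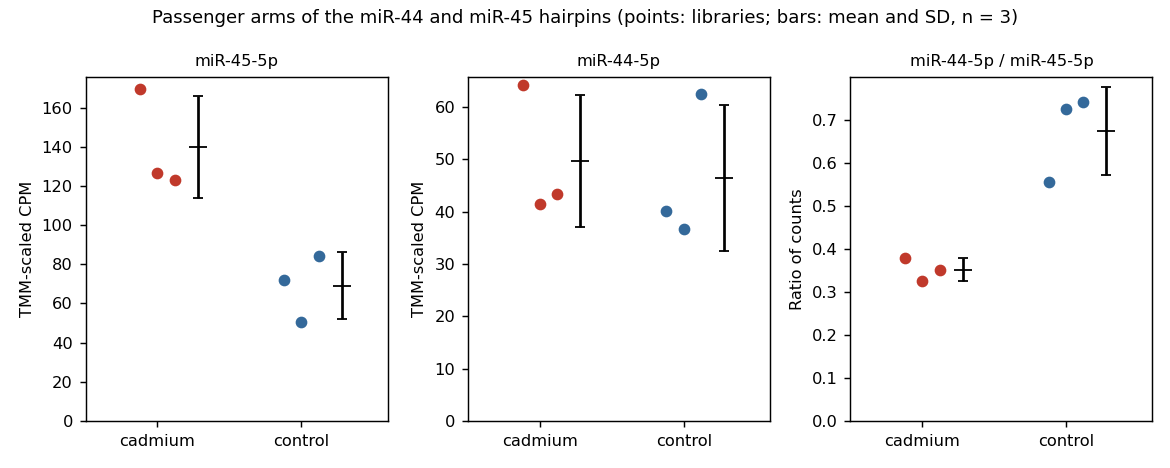
TMM-scaled CPM of miR-45-5p and miR-44-5p and the ratio of their counts (vertical axes) in cadmium (left) and control (right) libraries, with mean and SD of 3 libraries. miR-45-5p was higher in each cadmium library, miR-44-5p overlapped, and the ratio was 0.326 to 0.378 in cadmium libraries, against 0.556 to 0.741 in control libraries.

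miR-46 (chromosome III, 13660515 to 13660611, plus strand) and miR-47 (chromosome X, 13921250 to 13921346, plus strand) are a pair with related guides, and both had well-covered passengers. miR-46-5p had 381, 454 and 472 CPM in cadmium libraries, against 254, 281 and 300 CPM in control libraries, with no overlap. The increase was 0.65 on the log2 scale, with SE 0.20 and an adjusted p of 0.0409. Without cadmium replicate 1 it passed, while it did not without cadmium replicate 2 (adjusted p = 0.0941), cadmium replicate 3 (0.149), control replicate 1 (0.0993), control replicate 2 (0.0824) or control replicate 3 (0.1246), nor with total-count scaling (0.148). miR-47-5p had 218, 261 and 304 CPM in cadmium libraries, against 144, 202 and 175 CPM in control libraries, again without overlap. Its log2 fold change of 0.58 (SE 0.23) did not pass (adjusted p = 0.0923). The guides of this pair did not pass either, at 0.35 (SE 0.19) for miR-46-3p and 0.31 (SE 0.17) for miR-47-3p, and the arm ratio changed by 0.29 for miR-46 and 0.28 for miR-47, with 95% intervals from −0.43 to 1.00 and from −0.43 to 0.98.

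The 5 members with the highest mean CPM were miR-63-5p, miR-46-5p, miR-229-3p, miR-47-5p and miR-71-3p. In each library the 5 most abundant passengers made up between 49.4% and 54.7% of all passenger counts under cadmium and between 47.2% and 47.7% in control. miR-63-5p, from the miR-64 family, had 456, 482 and 491 CPM in cadmium libraries, against 289, 367 and 362 CPM in control libraries. Its groups did not overlap, yet its log2 fold change of 0.49 (SE 0.20) did not pass (adjusted p = 0.0966). miR-229-3p, of the same family, had 176, 238 and 205 CPM in cadmium libraries, against 314, 197 and 252 CPM in control libraries, and overlapped. miR-71-3p, the partner of a guide linked to lifespan, had 159, 203 and 185 CPM in cadmium libraries, against 261, 167 and 212 CPM in control libraries, and also overlapped.

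Passengers of the let-7 family, some of whose guides time larval transitions, were examined together. None of 6 passed the test on levels, and their median log2 fold change was 0.35, beside 0.0039 over all miRNAs tested, and 0.16 with total-count scaling. let-7-3p had 11.9, 13.0 and 11.6 CPM in cadmium libraries, against 8.55, 11.2 and 9.90 CPM in control libraries. Its groups did not overlap, but the log2 difference was 0.29, with SE 0.28 and an adjusted p of 0.478. The other 5 fold changes were 0.41 for miR-48-3p, 0.26 for miR-84-3p, −0.32 for miR-241-3p, 0.46 for miR-794-3p and 0.47 for miR-795-3p, with adjusted p-values of 0.296 or more. The guide median in this family was 0.59, and all 6 arm ratio changes lay below 0, from −0.69 for miR-241 to −0.23 for miR-48, with none passing.

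In the miR-51 family, worm relatives of vertebrate miR-100, 3 passengers were members and none passed. miR-51-3p had a log2 fold change of −0.35 (SE 0.41), miR-54-5p of 0.0050 (SE 0.31, below 0 with total-count scaling) and miR-55-5p of −0.31 (SE 0.38). The last 2 come from adjacent hairpins on the minus strand of chromosome X, miR-54 at 13144996 to 13145094 and miR-55 at 13144827 to 13144924, in an intron of F09A5.3. miR-54-5p averaged 41.6 ± 14.7 CPM in cadmium libraries and 41.7 ± 9.81 CPM in control libraries, and miR-55-5p 4.66 ± 1.05 CPM in cadmium libraries and 5.68 ± 2.38 CPM in control libraries (SD, n = 3 each). The levels of both overlapped between the groups.

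miR-238-5p was the member that the filter on low counts left untested. It had 10, 19 and 47 counts in cadmium libraries, or 2.84, 5.61 and 21.0 CPM, against 1, 5 and 3 counts in control libraries, or 0.534, 1.93 and 0.761 CPM. The groups did not overlap, but control replicates 1 and 3 had no more than the floor of 3 counts, and cadmium replicate 3 stood far above the other cadmium libraries. Without the filter the fitted value was 3.11 on the log2 scale, with SE 0.60 and an edgeR adjusted p of 2.98e-05; with control counts this low its size depends on the prior count. This member entered the set through its cadmium counts alone, which favoured a higher value under cadmium. Its guide miR-238-3p, of a family linked to lifespan and stress, had 9872, 11776 and 8763 CPM in cadmium libraries, against 8904, 5335 and 8208 CPM in control libraries, and did not pass (adjusted p = 0.181).

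The balance of the arms was tested with limma on log2((passenger count + 0.5)/(guide count + 0.5)) in the 63 hairpins, with adjustment over all of them. None of the 51 member ratios passed, against 3.17% of all hairpins tested, and 0 passed in edgeR's test of the interaction of arm and group, against 4.76%. The 2 hairpins called in limma were miR-83 and miR-788, and the 3 called in the interaction were these and miR-253. The choice of members had removed all of them, so the gap between 0 and these shares comes from that choice alone. An unadjusted p under 0.05 was seen for 4 members in limma (14.3% of all hairpins tested) and for 5 in edgeR's interaction. The 14.3% includes miR-83, miR-243, miR-253 and miR-788, which were set aside, so it shows no deficit among the members either. For the interaction the share over all hairpins at this unadjusted threshold is not given here, so the 5 cannot be set against it. Changes of the 51 ran from −1.10 to 2.18 on the log2 scale, with a median of −0.045 beside −0.10 over all 63, and 41 were smaller than 0.5 in size. The change was below 0 in 30 members, against 60.3% of all hairpins tested.

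**Figure D5:**
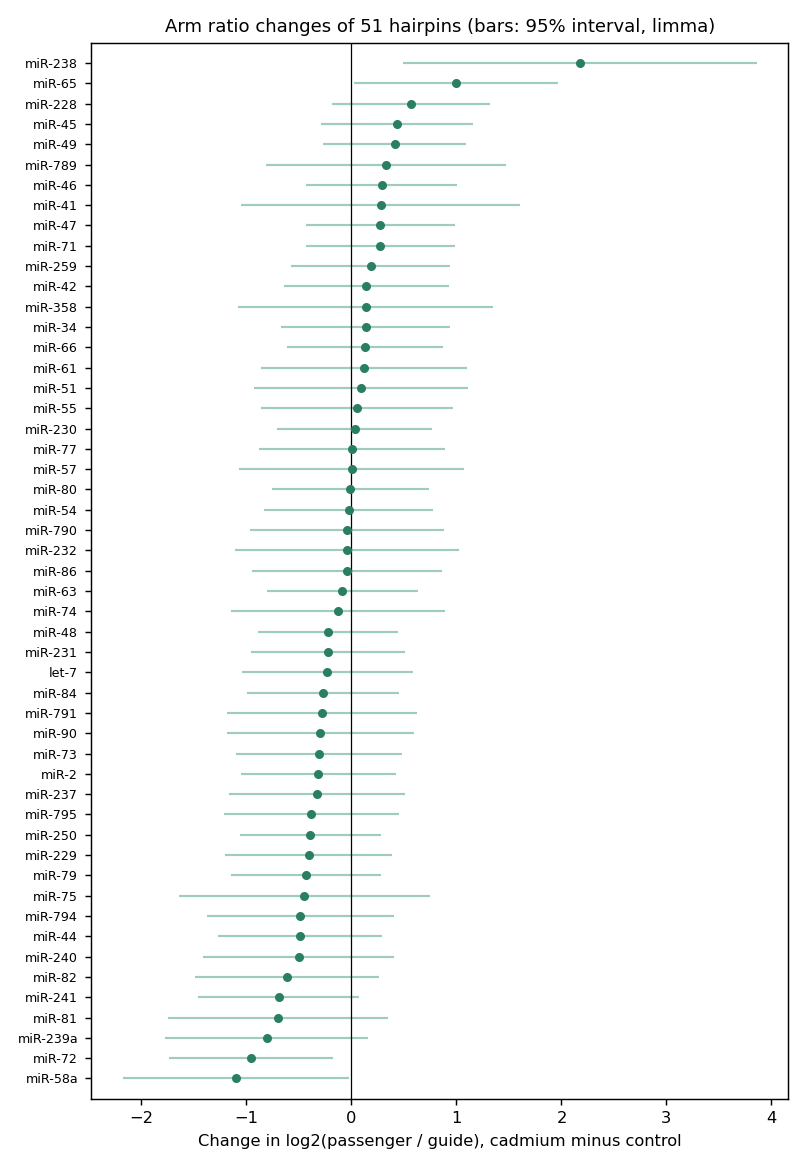
Change in log2(passenger/guide), cadmium minus control, for 51 hairpins in order of size, with 95% intervals from limma. The change ran from −1.10 for miR-58a to 2.18 for miR-238, and none passed an adjusted p of 0.05.

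Among the 51 members, the 3 smallest p-values of the arm ratio in limma belonged to miR-238, miR-72 and miR-65. For miR-238 the log2 ratio was −11.69, −10.997 and −8.69 in cadmium libraries, against −13.44, −11.29 and −13.17 in control libraries. The groups overlapped, and the change of 2.18 (95% interval 0.49 to 3.86) had an adjusted p of 0.17 in limma, or 0.0200 without control replicate 2. As with its level, the choice of this member through its cadmium counts favoured a higher ratio under cadmium, so these p-values carry no support for a change. Without cadmium replicate 3 the change was 1.29, with an adjusted p of 0.452 in limma. For miR-72, miR-72-3p had 25.5, 42.6 and 32.6 CPM in cadmium libraries, against 43.8, 60.7 and 37.6 CPM in control libraries. The guide miR-72-5p had 37052, 36351 and 37580 CPM in cadmium libraries, against 26920, 26466 and 27337 CPM in control libraries. The passenger overlapped between the groups, whereas the guide was higher in every cadmium library, by 0.46 on the log2 scale, with SE 0.16 and an adjusted p of 0.0558. In each cadmium library the log2 ratio was below that of all control libraries, with a change of −0.96 (95% interval −1.74 to −0.18, adjusted p = 0.189 in limma).

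For miR-65, miR-65-3p had 13.6, 16.0 and 19.2 CPM in cadmium libraries, against 8.55, 14.3 and 8.12 CPM in control libraries, and miR-65-5p had 5063, 5377 and 3937 CPM in cadmium libraries, against 7074, 4505 and 6521 CPM in control libraries. Both arms overlapped between the groups, with control replicate 2 closest to cadmium. The ratio changed by 1.00 (95% interval 0.022 to 1.97, adjusted p = 0.324 in limma, or 0.0377 without control replicate 2). For miR-58a, whose guide is among the most abundant worm miRNAs and related to fly bantam, miR-58a-5p had 73.5, 159 and 79.9 CPM in cadmium libraries, against 140, 96.6 and 110 CPM in control libraries. The guide had 113801, 149877 and 254370 CPM in cadmium libraries, against 70681, 116368 and 84853 CPM in control libraries. Neither arm separated the groups. The guide passed in edgeR (adjusted p = 0.0431) but not without cadmium replicate 2 (adjusted p = 0.0725), cadmium replicate 3 (0.1997), control replicate 1 (0.162) or control replicate 3 (0.1498). The change in ratio of −1.10 (95% interval −2.18 to −0.022) had an adjusted p of 0.324 in limma. The log2 ratios of the groups were apart for 6 of 51 members, against 19% of all hairpins tested. That 19% includes all 5 hairpins set aside by name, so it shows no deficit among the members. Of the 6 members, miR-45 and miR-49 were above control, and miR-48, miR-72, miR-241 and miR-250 below it. The miR-45 ratio uses the guide count shared with miR-44, so it is not the arm balance of the miR-45 hairpin alone.

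The summed share of the 51 passengers in their hairpins was 0.477% (95% Wilson interval 0.468 to 0.487), 0.460% (0.452 to 0.469) and 0.394% (0.385 to 0.404) in cadmium libraries, against 0.524% (0.510 to 0.538), 0.496% (0.484 to 0.508) and 0.509% (0.500 to 0.519) in control libraries. It was lower in each cadmium library, and averaged 0.444 ± 0.044% in cadmium libraries and 0.509 ± 0.014% in control libraries (SD, n = 3 each). The intervals cover counting error only. This sum holds the reads of the shared miR-44 and miR-45 guide under both names. With those reads counted 1 time, an alternative chosen after seeing the data, the share was 0.544%, 0.527% and 0.442% in cadmium libraries, against 0.586%, 0.537% and 0.577% in control libraries, and the groups overlapped. A few abundant hairpins decide this sum: without miR-58a the difference of the group means was −0.020 percentage points, against −0.066 with it. The median share over hairpins was 1.33%, 0.965% and 0.746% in cadmium libraries, against 1.05%, 0.860% and 1.03% in control libraries, and overlapped.

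The passengers miR-230-5p and miR-240-5p also had an unadjusted p under 0.05 and missed the threshold. miR-230-5p had 106, 111 and 91.6 CPM in cadmium libraries, against 60.9, 39.4 and 75.6 CPM in control libraries. Its groups did not overlap, and the log2 difference was 0.80, with SE 0.28 and an adjusted p of 0.0574, beside 0.83 (SE 0.24) for its guide. miR-240-5p, whose guide is expressed in the gonad, had 47.4, 49.6 and 41.1 CPM in cadmium libraries, against 73.7, 61.4 and 68.8 CPM in control libraries, also without overlap. This was −0.56 on the log2 scale, with SE 0.24 and an adjusted p of 0.113, beside 0.094 (SE 0.34) for its guide. These 2 were chosen after the values were seen.

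The miR-58 family, to which miR-58a belongs, had 3 more passengers in the set and none of the 4 passed. miR-80-5p averaged 117 ± 17.8 CPM in cadmium libraries and 113 ± 23.4 CPM in control libraries, and miR-81-5p 4.84 ± 1.52 CPM in cadmium libraries and 6.25 ± 1.53 CPM in control libraries (SD, n = 3 each). miR-82-5p had 9.36, 9.16 and 8.49 CPM in cadmium libraries, against 16.6, 15.5 and 10.1 CPM in control libraries. It was lower in every cadmium library, with a log2 difference of −0.61 (SE 0.30, adjusted p = 0.174). In the miR-72 family, miR-72-3p, miR-73-5p and miR-74-5p had log2 fold changes of −0.49, −0.36 and −0.24, and none passed.

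Several hairpins had a guide past the threshold and a passenger that was not. The guide miR-237-5p, of the lin-4 family of developmental timing miRNAs, was 0.83 (SE 0.21) higher on the log2 scale under cadmium, and miR-237-3p was 0.51 (SE 0.31) higher with an adjusted p of 0.275. miR-49-3p was −0.71 (SE 0.17) relative to control, beside −0.30 (SE 0.24) for miR-49-5p. The guide miR-79-3p was 0.76 (SE 0.25) above control, and miR-79-5p had 7.66, 7.39 and 9.38 CPM in cadmium libraries, against 6.41, 7.34 and 5.58 CPM in control libraries. Its groups were apart by a small margin, and the log2 difference of 0.34 (SE 0.30) had an adjusted p of 0.471.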

How the data were processed

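Small RNA libraries of whole worms were made with a multiplexed kit and sequenced for 50 cycles, per the labels' protocols. The authors deposited whole-number read counts per mature miRNA and CPM per library; recomputing CPM from the counts gave the deposited CPM to within rounding. The submitters' processing notes name cutadapt 3.4, Bowtie2 2.4.2, edgeR and the WBcel235 build, without their roles. How multiply matching reads were assigned is not given in the sources used here, and can change the counts of similar hairpins. A further 12 columns of per-sample values match no sample title and were not used.

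Groups and replicate numbers came from the titles. Counts were filtered with filterByExpr, scaled by TMM and tested in edgeR 4.0.16 (R 4.3.3) without covariates. Arm ratios were tested in limma 3.58.1 with 0.5 added to each arm. The threshold was an adjusted p of 0.05. The procedures were tested on simulated data.

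Members, lists and alternatives were chosen with earlier results of these data known. By rule, the members named were those past the threshold, the 3 smallest arm-ratio p-values, the 5 highest levels, the 5 highest and 5 lowest shares, those nearest the count minimum, and the miR-35 cluster, let-7 and miR-51 families. Other members named with values, among them those of the miR-44, miR-46, miR-58 and miR-72 families, neighbouring hairpins, miR-230-5p, miR-240-5p and passengers of called guides, fall outside this rule and were chosen after their values were seen. Seed families follow common usage, since mature sequences were not used here. Alternatives were other scalings, no filter, DESeq2 1.42.0, a replicate block, other pseudocounts and minimums, and leaving out each library.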

Additional observations from a re-analysis of the deposited data

How the results depend on the processing

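The number of passenger arms called, 4 (2 higher, 2 lower), was 2 with total-count scaling (0 higher), 6 without the filter on low counts (4 higher) and 7 with the DESeq2 Wald test (5 higher). Leaving out each of the 6 libraries in turn gave between 2 and 4 calls, with between 0 and 3 higher and between 1 and 2 lower. miR-238-5p was among the higher calls without the filter, without cadmium replicate 1 and without control replicate 2. Its entry into the set through cadmium counts alone favoured such a call, which carries no support for a change. The same holds for the lower calls of miR-41-3p, which entered through control counts alone. Deviations from the group means correlated at −0.045, −0.29 and −0.31 between libraries with the same number, so the replicate numbers gave no sign of pairing. With the replicate number as a block, 0 passengers were called (0 higher, 0 lower), while 6 had an unadjusted p under 0.05, and 0 arm ratios were called. The shares of all miRNAs called in these alternative fits are not given here, so these counts of passengers describe the members alone. The adjusted p under the block was 0.0683 for miR-77-5p, 0.0508 for miR-41-3p, 0.0787 for miR-45-5p and 0.101 for miR-46-5p. The arm ratios called ran from 0 to 2 over the fits without 1 library: miR-81 without cadmium replicate 1, and miR-65 and miR-238 without control replicate 2. They stayed at 0 with a pseudocount of 1, in the edgeR interaction and with a minimum mean of 50 counts per arm. Over all 63 hairpins tested, 0 were called with the block, 2 without cadmium replicate 1 and 6 without control replicate 2. That count was 2 with a pseudocount of 1, 3 in the edgeR interaction and 3 of 32 with the minimum of 50. The difference in summed passenger share of −0.066 percentage points ran from −0.082 to −0.041 without 1 library. It was −0.063 with the guide reads of miR-44 and miR-45 counted 1 time, where the groups overlapped, and −0.020 without the miR-58a hairpin, both chosen after seeing the data, and reversed to 0.033 with the median share over hairpins. The cause of these differences was not tested. Of 44 alternative values for the 4 called passengers, 27 stayed past the threshold, 17 did not and 0 reversed. These values include those of miR-41-3p, whose lower level the choice of members favoured. The mean was under 50 counts for 24 members, whose median SD of log2(CPM + 1) within groups was 0.33, against 0.35 for the other members and 0.28 for guides. The added 1 narrows this SD most at low CPM, so these values do not show that low-count members vary as little as the others.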
